A study of Mus musculus with 2 samples.

Results

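Respiratory complex I (NADH:ubiquinone oxidoreductase) is built from subunits encoded in both genomes, and the RNA of 46 subunit genes was described here, out of 32285 genes in the count tables. The members were taken by gene symbol: 39 nuclear genes (Nduf followed by a, b, c, s or v and a number, and Ndufab1) and the 7 mitochondrial genes mt-Nd1, mt-Nd2, mt-Nd3, mt-Nd4, mt-Nd4l, mt-Nd5 and mt-Nd6. Assembly factors (Ndufaf genes) were left out of the members and described beside them. The symbol rule also takes Ndufa4 and Ndufa4l2, although the Ndufa4 protein is now counted with complex IV.

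The series holds 2 droplet single-cell libraries of leukocytes from MC38 tumors, subcutaneous grafts of a mouse colon carcinoma cell line, in female mice of the strain C57BL/6J aged 6 to 8 weeks. One group was fed a normal diet and the other a ketogenic diet, which began on day 4. Tumors were taken on day 14, dead cells were removed, CD45+ cells were enriched with magnetic beads, and the cells of 5 mice were combined into 1 library per diet. All animals carried the same tumor and were otherwise unmanipulated as far as the labels say, so the groups differed by label in diet alone. With 1 library per diet there is no replicate, the diet and the library cannot be told apart, and no test was made: intervals are 95% intervals that cover counting error only, and a difference was called when it reached 1.5-fold in a gene with at least 50 UMIs (unique molecular identifiers, 1 per captured RNA molecule) over both libraries.

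Complex I is the entry point of NADH electrons into the respiratory chain. Its matrix arm carries the N module, which oxidises NADH, and the Q module, which reduces ubiquinone, and its membrane arm pumps protons. The mitochondrial genome encodes the hydrophobic core of the membrane arm, while the nuclear genome encodes the core of the matrix arm and all accessory subunits, so that assembly needs products of both. Macrophages, neutrophils and lymphocytes differ widely in how much they rely on respiration and on glycolysis.

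The 7 mitochondrial genes are shown by the last bases of their reading frames, because the libraries count RNA from its 3′ end and because neighbouring genes of this set gave opposite diet ratios. The bases are those of the GRCm38 transcripts in GENCODE M21, 5′ to 3′ on the strand of the gene, and capitals mark the stop codon or, in mt-Nd4, the lone T that polyadenylation completes to a stop codon.
mt-Nd1 (chrM:2751-3707, plus strand): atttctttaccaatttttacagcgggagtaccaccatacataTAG
mt-Nd2 (chrM:3914-4951, plus strand): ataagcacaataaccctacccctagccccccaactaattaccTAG
mt-Nd3 (chrM:9459-9806, plus strand): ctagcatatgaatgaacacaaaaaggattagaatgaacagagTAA
mt-Nd4l (chrM:9877-10173, plus strand): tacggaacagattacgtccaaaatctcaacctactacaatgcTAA
mt-Nd4 (chrM:10167-11544, plus strand): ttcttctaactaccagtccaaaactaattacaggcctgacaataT
mt-Nd5 (chrM:11742-13565, plus strand): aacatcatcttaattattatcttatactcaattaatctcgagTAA
mt-Nd6 (chrM:13552-14070, minus strand): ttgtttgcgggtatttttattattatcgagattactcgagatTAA
All 7 genes are single exons without introns. The frames of mt-Nd4l and mt-Nd4 share 7 bases on the same strand, and both are known to lie on 1 mature RNA, so reads near that junction cannot be assigned to either with certainty. The frames of mt-Nd5 and mt-Nd6 share 14 bases on opposite strands, and whether the counting used strand is not given in the sources used here.

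Barcodes that passed the minimum (500 UMIs and 300 genes) numbered 5671 for the normal and 5944 for the ketogenic diet, with medians of 4200 and 3922 UMIs, and 7 barcode sequences occurred in both. Marker gene sums gated them into 16 classes, of which 10 had at least 50 cells in each library and were used. These held, for the normal and then the ketogenic diet, 1066 and 423 macrophages, 415 and 346 monocyte-macrophage intermediates, 748 and 760 monocytes, 179 and 138 neutrophils, 113 and 110 CCR7 dendritic cells, 799 and 1418 NK cells that were not cycling, 113 and 178 cycling NK cells, 302 and 322 CD8 T cells, 167 and 246 other T cells, and 69 and 97 tumor or stromal cells. The last class goes against the CD45+ label: Ptprc, the gene of CD45, stood at 25.1 CPM (counts per 1000000 UMIs of the class) there in the normal library and at 19.7 CPM in the ketogenic library, against 540 to 1137 CPM in the other classes of both. Median depth per cell lay between 974 UMIs in neutrophils and 33370 in tumor or stromal cells of the normal library. Barcodes with markers of more than 1 lineage, 1014 and 999, were set aside as mixed, and no doublet caller was run.

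The summed mt-Nd level was lower in the ketogenic library in all 10 classes, although in neutrophils the sign depended on a limit on the mitochondrial share, as given with their values. The sum was 2236 CPM in normal-diet and 1498 in ketogenic-diet macrophages, 2908 and 1898 in intermediates, and 3370 and 2224 in monocytes. In NK cells that were not cycling it was 4140 and 2731, in cycling NK cells 4277 and 2870, and in other T cells 4608 and 3032. All 6 of these classes had log2 ratios (ketogenic over normal) between -0.62 and -0.58. The lymphoid classes thus held more mt-Nd RNA per UMI than the macrophage lineage under either diet. CD8 T cells (3807 and 2988, log2 ratio -0.35, interval -0.40 to -0.30) and CCR7 dendritic cells, the migratory dendritic cells that carry antigen to lymph nodes (2603 and 2182, log2 ratio -0.25, interval -0.34 to -0.17), were closer between the diets. Markers of other cell types moved with the diet in the CCR7 dendritic class: all 8 T cell markers were higher in the ketogenic library (summed level 1650 and 2659 CPM), as were both CD8 markers (326 and 617), and 7 of 8 macrophage markers were lower (2475 and 1040). All of these markers had UMIs in the class, and their part in its mt-Nd and nuclear values was not tested. Tumor or stromal cells had the highest mt-Nd level of the 10 classes in both libraries and the largest diet ratio, 5325 and 3154 (log2 ratio -0.76, interval -0.79 to -0.72). Neutrophils, which are known for few mitochondria, had the lowest, 1845 and 1457 (log2 ratio -0.34, interval -0.52 to -0.16). In neutrophils 1 cell held 17.1% of the mt-Nd UMIs of the normal library, and without the cell richest in mt-Nd UMIs in each class and library, a check chosen after seeing the data, their log2 ratio was -0.14. With barcodes of at most 10% mitochondrial UMIs, which took away 2 normal-diet neutrophils and 0 ketogenic-diet ones, it was -0.02, and with at most 5%, which took away 6 and 2, it was 0.090. In the ketogenic library the intervals of the highest classes (tumor or stromal, other T) overlapped, as did those of the lowest (macrophages, neutrophils). Without such a limit the intervals of all 10 log2 ratios lay below 0, and the median over the classes was -0.59.

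**Figure D1:**
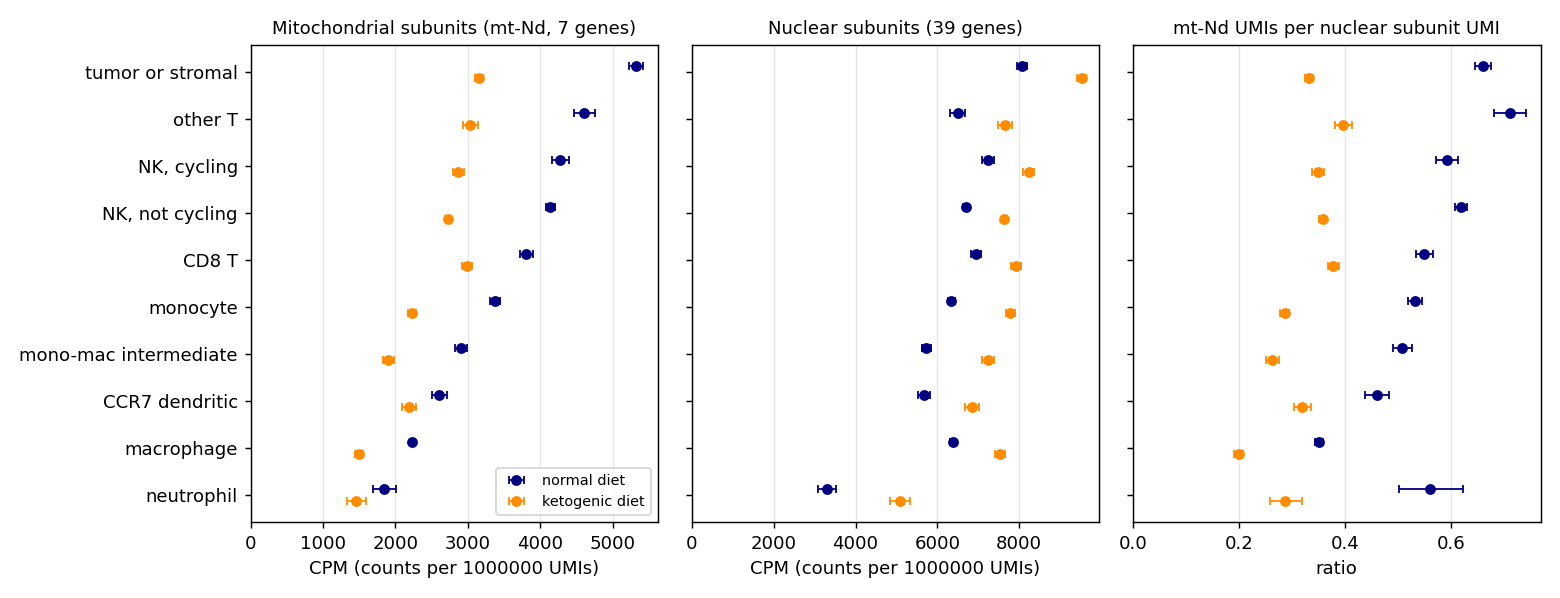
Summed level of the 7 mt-Nd genes (left) and the 39 nuclear subunit genes (middle) in CPM, and mt-Nd UMIs per nuclear subunit UMI (right), for each gated class; points are the normal (blue) and ketogenic (orange) libraries and bars are 95% counting intervals. Ketogenic points lie left of normal ones for mt-Nd (2236 and 1498 in macrophages) and right of them for the nuclear genes (6382 and 7539), in every class.

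The nuclear subunits went the other way. Their summed level was 6382 in normal-diet and 7539 in ketogenic-diet macrophages, 5733 and 7239 in intermediates, 6342 and 7781 in monocytes, and 5666 and 6854 in CCR7 dendritic cells. In lymphocytes it was 6701 and 7640 (NK, not cycling), 7234 and 8236 (NK, cycling), 6944 and 7920 (CD8 T) and 6494 and 7648 (other T). Tumor or stromal cells were again highest with 8074 and 9526, and neutrophils lowest with 3302 and 5089. The log2 ratios were 0.19 to 0.34 in 9 classes and 0.62 in neutrophils (interval 0.51 to 0.74), with a median of 0.24 and all 10 intervals above 0. In the neutrophil class 8 of 9 monocyte markers were higher in the ketogenic library, with a summed level of 10124 and 14964 CPM (median over cells 3257 and 7271), and 8 of 9 neutrophil markers were lower, at 59213 and 53966 CPM in sum. All 9 monocyte markers had UMIs there, monocytes had the higher nuclear level under either diet, and the part of these markers in the neutrophil ratio and calls was not tested. Over all genes measured, the median log2 ratio lay between -0.13 (macrophages and intermediates) and 0.00 (neutrophils), so both subunit sets stood away from the bulk of genes, on opposite sides.

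**Figure D2:**
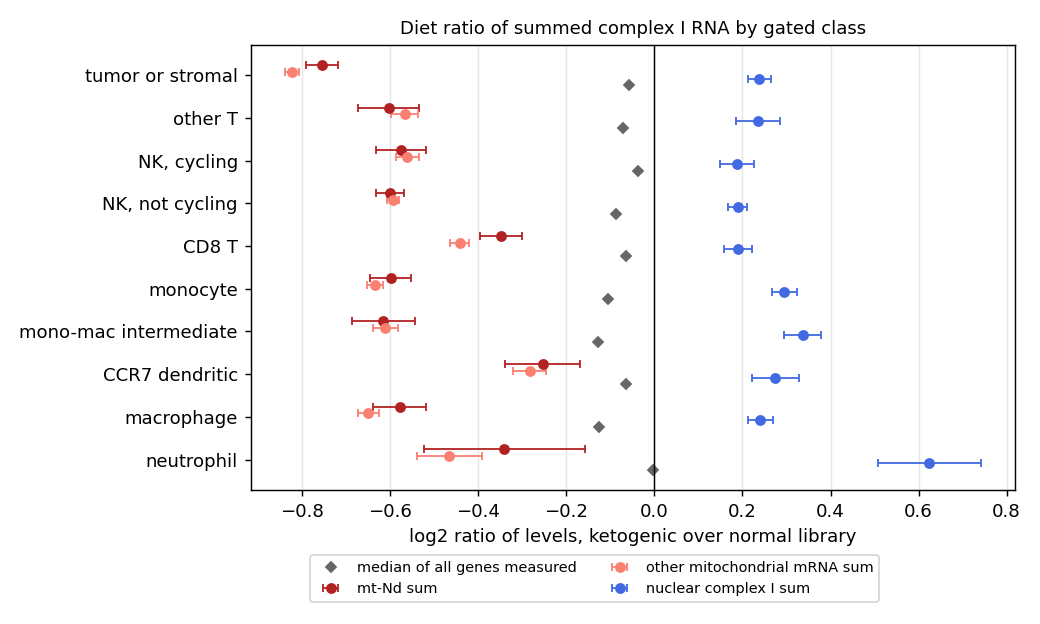
log2 ratio of ketogenic over normal level for the summed mt-Nd genes, the 6 other mitochondrial mRNAs and the summed nuclear subunits in each class, with 95% counting intervals, and the median over all measured genes (grey diamonds, no interval). The mt-Nd and other mitochondrial sums lie between -0.82 and -0.25, the nuclear sums between 0.19 and 0.62, and the gene medians between -0.13 and 0.00.

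Within a class the balance of the genomes can be read without any library total, as mt-Nd UMIs per nuclear subunit UMI. Among the 10 classes used, macrophages had the lowest ratio in both libraries, 0.350 (interval 0.343 to 0.358) and 0.199 (0.191 to 0.207). Other T cells had the highest of these classes, 0.710 (0.680 to 0.740) and 0.396 (0.381 to 0.413). In the ketogenic library their interval overlapped that of CD8 T cells (0.377, 0.367 to 0.388). Classes with fewer cells were not ranked. In the normal library tumor or stromal cells came second with 0.659, but in the ketogenic library they stood behind other T, CD8 T and both NK classes with 0.331. From the third to the eighth place of the normal library, NK cells to intermediates, neighbouring classes had overlapping intervals, and so did the third to the eighth place of the ketogenic library, NK cells to monocytes. Over the 10 classes used, the log2 change of the ratio had a median of -0.83. It was smallest in CCR7 dendritic cells (-0.53, interval -0.63 to -0.43) and CD8 T cells (-0.54, -0.60 to -0.48). It was largest in tumor or stromal cells (-0.99, -1.04 to -0.95), neutrophils (-0.97, -1.18 to -0.75) and intermediates (-0.95, -1.03 to -0.87). In the normal library 1 neutrophil held 17.1% of the mt-Nd UMIs of its class. The neutrophil mt-Nd ratio depended on that cell and on a limit on the mitochondrial share, as given above. Monocyte markers were also higher in this class with the ketogenic diet, so its place in the order is uncertain. The order of the classes was much the same under both diets: across the 10 classes Spearman's rho between the libraries was 0.95 for the mt-Nd level and 0.92 for the nuclear level. Within a library the classes with more mt-Nd RNA also had more nuclear subunit RNA (rho 0.84 in each). The points of such a correlation share their library and its depth, and it is given as a description.

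Free RNA in the droplets had the same direction. Barcodes with at most 100 UMIs, which hold mostly RNA from outside intact cells, had mt-Nd sums of 7872 CPM with the normal and 4820 CPM with the ketogenic diet (log2 ratio -0.71) and nuclear sums of 6484 and 8522 (0.39). Both mt-Nd values exceeded those of all 10 classes in their own library. When this profile was subtracted at 5% of the UMIs of each class, the median log2 ratios were -0.57 (mt-Nd) and 0.23 (nuclear). Macrophage marker RNA in classes that should lack it also moved with the diet: the summed markers stood at 125 and 34.0 CPM in NK cells that were not cycling, 318 and 115 in CD8 T cells and 122 and 43.2 in tumor or stromal cells. The part of free RNA in the remaining difference was not tested.

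Single mt-Nd genes did not share 1 diet ratio. Of 61 gene and class pairs with at least 50 UMIs, 28 were at least 1.5-fold lower in the ketogenic library and 3 at least 1.5-fold higher, against 9.57% lower and 3.26% higher among the 60072 pairs of all genes. With barcodes of at most 5% mitochondrial UMIs 18 were lower in place of 28, and the share over all genes was not computed at that limit. mt-Nd1, mt-Nd2, mt-Nd3 and mt-Nd4 were below 0 in all 10 classes. mt-Nd3, a small subunit beside the Q module, differed most: it stood at 321 and 156 CPM in NK cells that were not cycling, 226 and 110 in tumor or stromal cells (log2 ratio -1.04 in both) and 124 and 70.8 in macrophages (-0.80). It was called lower in 9 of 10 classes, all but neutrophils (-0.57).

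mt-Nd2, one of the antiporter-like proton-pumping subunits, was called lower in 8 classes, with 880 and 487 in NK cells that were not cycling and 981 and 582 in other T cells. mt-Nd4, another antiporter-like subunit, was called in 6, with 1543 and 874 in tumor or stromal cells and 702 and 463 in macrophages. mt-Nd1, which shapes the ubiquinone channel, was called in 3, with 2314 and 1400 in tumor or stromal cells (-0.73) but 1388 and 1216 in CD8 T cells (-0.19). For these 3 genes tumor or stromal cells or NK cells gave the most negative ratios, and CD8 T cells, CCR7 dendritic cells or neutrophils the least.

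mt-Nd4l stood on the other side. It was above 0 in all 9 classes where it was measured (neutrophils had under 50 UMIs), with log2 ratios from 0.03 in tumor or stromal cells to 0.70 in CCR7 dendritic cells. It was counted at 22.8 and 36.2 CPM in macrophages, 46.6 and 70.7 in CD8 T cells and 21.1 and 34.2 in CCR7 dendritic cells, which were its 3 calls. Its interval lay above 0 in 4 classes, with CCR7 dendritic cells not among them (20 and 31 UMIs, interval -0.16 to 1.59). mt-Nd4l lies next to mt-Nd3, with a tRNA gene between them, and shares its last bases with mt-Nd4, as printed above, and both neighbours had negative ratios in the same cells. It is also a thin count, 900 and 1337 UMIs in the 10 classes used, against 4811 and 2979 for mt-Nd3 and 22823 and 17047 for mt-Nd4.

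mt-Nd5, the largest antiporter-like subunit, differed less between the diets: its log2 ratio ran from -0.61 in tumor or stromal cells (254 and 167 CPM) to 0.27 in CCR7 dendritic cells (102 and 124), with 7 classes below 0 and 3 above, and 2 intervals below 0. mt-Nd6, the single gene of the set on the other strand, had 205 and 198 UMIs in the 10 classes used and was measured in 2 classes. It stood at 16.3 and 10.9 CPM in tumor or stromal cells (log2 ratio -0.59) and had a log2 ratio of -0.22 in NK cells that were not cycling, with neither interval leaving out 0. The spread among genes of 1 class was therefore wide: in macrophages mt-Nd3 was at -0.80 and mt-Nd4l at 0.66 on the log2 scale.

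**Figure D3:**
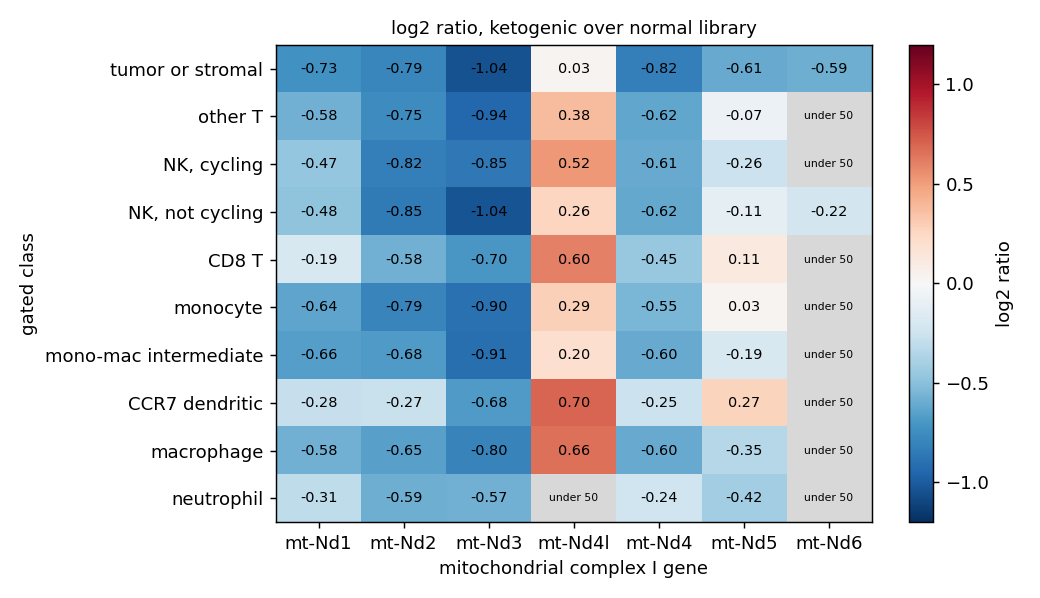
log2 ratio of ketogenic over normal level for each mt-Nd gene (columns) in each gated class (rows); blue is lower and red higher in the ketogenic library, and grey cells marked "under 50" had fewer than 50 UMIs over both libraries. The mt-Nd3 column is the darkest blue (-1.04 to -0.57) and the mt-Nd4l column is red or white (0.03 to 0.70).

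The 6 other protein-coding mitochondrial genes showed a like spread. Their sum had log2 ratios from -0.82 to -0.28, with a median of -0.58 against -0.59 for mt-Nd, and mt-Nd genes made up 13.8% and 14.4% of mitochondrial mRNA UMIs in macrophages of the normal and ketogenic library. mt-Atp6, a subunit of ATP synthase, was called lower in 9 classes (-1.17 to -0.58), and the complex IV genes mt-Co1, mt-Co2 and mt-Co3 were below 0 in all 10. mt-Cytb, of complex III, stayed between -0.35 and 0.13 and was never called. The lower mitochondrial level was thus shared by other mitochondrial mRNAs and was not found for complex I genes alone.

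Of the 39 nuclear members, 38 had at least 50 UMIs in 1 class or more, giving 362 gene and class pairs. Ndufa4l2, a low-abundance relative of Ndufa4, had 31 and 28 UMIs and was not measured in any class. Of the 362 pairs 34 (9.39%) were called higher in the ketogenic library, against 3.26% of all gene and class pairs, and 2 (0.552%) were called lower, against 9.57%; 309 were above 0. Neutrophils gave 14 of the 34 calls from 21 members measured, and the other 9 classes gave 20 from 341 pairs. The neutrophil class is the one in which monocyte markers were higher, as given above. Among its calls, the intervals of Ndufs5, Ndufb4, Ndufb8 and Ndufa1 included 0. Over all classes, 4 of the 34 calls were of Ndufb1-ps, annotated as a non-coding RNA, and 3 of Ndufa4, counted with complex IV. Of the members, 21 were above 0 in every class in which they were measured, and 5 (Ndufs1, Ndufs6, Ndufa6, Ndufa9 and Ndufa10) were below 0 in more classes than above.

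Class by class, the counts were read against the share of all measured genes called in the same direction. In macrophages 1 of 38 nuclear members was called higher (2.25% of all genes) and 3 of 6 mt-Nd genes lower (12.1% of all genes). In intermediates 4 of 38 were higher (3.19%) and 4 of 6 lower (13.9%), and in monocytes 2 of 38 were higher (2.32%) and 3 of 6 lower (10.4%). The mt-Nd share called lower was thus above the background in each of these 3 classes. Neutrophils had 14 of 21 higher (13.9%) and 1 of 5 lower (13.2%), and CCR7 dendritic cells 4 of 37 higher (5.25%) and 1 of 6 lower (11.1%). NK cells that were not cycling had 1 of 38 higher (1.76%) and 3 of 7 lower (6.72%), and cycling NK cells 1 of 38 higher (2.86%) and 3 of 6 lower (7.53%). CD8 T cells had 0 of 38 nuclear members higher (2.67%) and 1 of 6 mt-Nd genes lower (7.33%), although 35 of the 38 were above 0. Other T cells had 3 of 38 higher (4.16%) and 3 of 6 lower (10.1%), and tumor or stromal cells 4 of 38 higher (3.6%) and 6 of 7 lower (7.8%). In macrophages, both NK classes and CD8 T cells the nuclear count was near or below the background at this fold, while 31 to 35 of the 38 members were above 0 there.

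The core subunits of the matrix arm had smaller median ratios than the accessory subunits. The N module core, which holds the flavin and the NADH site, had a median log2 ratio of 0.01 over 26 pairs, 14 of them above 0. The Q module core had one of 0.11 over 37 pairs, 30 of them above 0, and its sum was above 0 in all 10 classes. Over all gene and class pairs 40.6% were above 0. Ndufv1, which binds NADH and the flavin, was at 48.6 and 64.3 CPM in macrophages (0.41) and 58.5 and 62.6 in NK cells that were not cycling (0.10). Ndufv2, which carries an iron-sulfur cluster next to it, was at 116 and 149 in CD8 T cells (0.36) and 129 and 127 in monocytes (-0.02). Ndufs1, the largest core subunit and a carrier of several iron-sulfur clusters, was below 0 in 7 of 8 classes and was called lower in intermediates, with 36.2 and 21.4 (-0.76, interval -1.47 to -0.08). Ndufs1 is a low count, 626 and 603 UMIs in the 10 classes used.

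In the Q module core, Ndufs3 ran from -0.01 in macrophages (115 and 114) to 0.47 in CCR7 dendritic cells (88.6 and 122). Ndufs7 and Ndufs8, which carry the last iron-sulfur clusters before ubiquinone, stood at 149 and 177 and at 117 and 126 in macrophages, and neither was called in any class. No Q module core gene was called in either direction.

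The accessory subunits had the larger median ratios. Those of the membrane arm had a median of 0.26 over 203 pairs, of which 191 were above 0, 25 were called higher and none lower, against 40.6% above 0, 3.26% called higher and 9.57% called lower over all gene and class pairs. Those of the matrix arm had a median of 0.17 over 86 pairs, with 6 called higher and 1 lower. Summed by arm, the median log2 ratio over classes was 0.20 (matrix) and 0.27 (membrane), against 0.07 for the N module core and 0.13 for the Q module core. The core sums held fewer UMIs, so their intervals are wider. In normal-diet macrophages they were 206 (N) and 474 CPM (Q), against 1497 (matrix arm) and 4015 (membrane arm). Every class had an interval above 0 for both accessory groups, against 1 class for the N module core and 6 for the Q module core. Such a count depends on depth as well as on the ratio. The 1 class was neutrophils, where the N module core sum was 62.4 and 129 CPM (1.04, interval 0.21 to 1.93). That of the Q module core was 194 and 295 (0.60). The accessory subunits there had ratios of 0.47 (matrix arm) and 0.66 (membrane arm). No N module core gene had enough UMIs in neutrophils to be measured by itself. The N module core sum is thus a thin count there, and its interval takes in both accessory values. Whether it differed from the accessory subunits in this class cannot be decided from these values.

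Ndufa3, a small accessory protein of the membrane arm, had the most calls of the nuclear members, 7 of 10 classes, and its interval lay above 0 in all 10. It was at 149 and 240 CPM in macrophages (0.69, interval 0.52 to 0.86), 144 and 249 in intermediates (0.80), 139 and 217 in NK cells that were not cycling (0.65) and 61.3 and 129 in tumor or stromal cells (1.07, 0.79 to 1.36). Ketogenic values ran from 129 to 252 and normal values from 61.3 to 172, so the libraries overlapped only between different classes. Ndufa1, another single-span membrane arm subunit, encoded on chromosome X, was called in 4 classes, with 159 and 239 in monocytes (0.59) and 116 and 202 in CCR7 dendritic cells (0.80). Ndufb1-ps was also called in 4, with 431 and 658 in intermediates (0.61) and 161 and 254 in tumor or stromal cells (0.65). GENCODE M21 annotates Ndufb1-ps (chr12:101968090-101977068, minus strand) as a non-coding RNA at a bidirectional promoter, so its counts may not stand for a subunit mRNA.

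Other membrane arm members called outside neutrophils with an interval that left out 0 were Ndufc1 (118 and 178) and Ndufb2 (88.1 and 144), both in intermediates, and Ndufc2 in monocytes (147 and 224, 0.61). In neutrophils Ndufb5, Ndufb7, Ndufb11 and Ndufa11 were called with such intervals, with Ndufb7 at 149 and 276 (0.89) and Ndufb5 at 62.4 and 135 (1.11). Ndufb11, essential for the membrane arm, was above 0 in all 10 classes with every interval above 0, from 0.18 in cycling NK cells (339 and 385) to 0.86 in neutrophils (97.1 and 176). Ndufa13, also known as GRIM-19, had the most UMIs of the nuclear members and a narrow range, from 0.02 in cycling NK cells (518 and 525) to 0.39 in monocytes (366 and 480). Among the next most counted, Ndufb7 ranged from 0.11 to 0.89. Ndufa7, of the matrix arm, ranged from 0.25 to 0.51 without a call, and all 10 of its intervals were above 0.

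On the matrix arm Ndufv3, a subunit next to the NADH site, was called in neutrophils (38.2 and 122, 1.68), CCR7 dendritic cells (127 and 195, 0.63) and tumor or stromal cells (134 and 202, 0.59), but stood at 213 and 236 in other T cells (0.15). Ndufa5 was called in other T cells (86.4 and 131, 0.60). Ndufs4, needed for the last step of N module assembly, was higher in neutrophils (65.9 and 119, 0.86) and lower in monocytes (187 and 162, -0.20). Ndufa9, at the joint of the arms, was called lower in CCR7 dendritic cells (69.6 and 39.7, -0.81, interval -1.44 to -0.20) and lay between -0.25 and 0.12 in the other 8 classes measured. Ndufa2 was called in neutrophils (156 and 239, 0.61). Ndufa4, counted with complex IV, was above 0 in all 10 classes with a median of 0.51, and was called in neutrophils, CCR7 dendritic cells (181 and 290, 0.68) and cycling NK cells (263 and 419, 0.67), while macrophages had 189 and 200 (0.08).

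**Figure D4:**
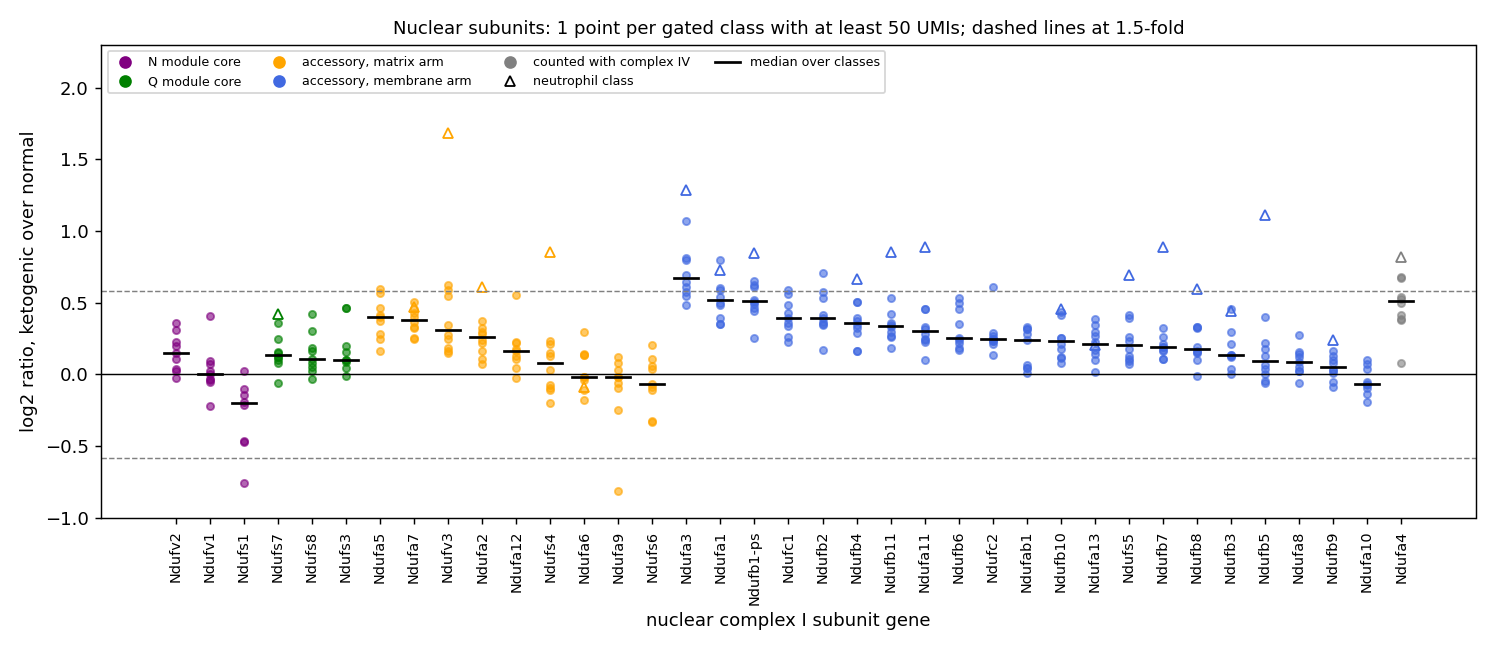
log2 ratio of ketogenic over normal level for 37 of the 38 nuclear members measured, ordered by role and by their median; each point is 1 gated class with at least 50 UMIs, open triangles are neutrophils, black bars are medians over classes and dashed lines mark 1.5-fold. Membrane arm accessory genes lie mostly above 0, led by Ndufa3 (0.48 to 1.29), while the N module core straddles 0 and Ndufs1 reaches -0.76.

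In the RefSeq promoter windows of GRCm38.p6 (250 bases before to 50 after the start, 300 bases), 33 of the 39 members had an entry. Searched on both strands, the consensus of the respiratory factor NRF1 occurred in 3 of these (Ndufa6, Ndufa11 and Ndufb4, 9.09%) against 1.31% of all 27025 promoters. The YY1 core AAGATGG occurred in 7 (21.2%) against 6.48%, and the ETS core CCGGAAG in 4 (12.1%) against 9.12%. The YY1 letters hold ATG, the letters of a start codon, and in all 7 windows they lay near the 3′ end. The part of start codons in their share was not tested. No printed matches overlap. The promoters below are shown because they contrast. Ndufb4 holds a match to NRF1, while Ndufa3, which had the most calls, and Ndufs6, which had none, both hold the YY1 letters. Capitals mark the matches, and each run is 5′ to 3′ on the strand of the gene.
Ndufb4 (chr16:37654319-37654618, minus strand): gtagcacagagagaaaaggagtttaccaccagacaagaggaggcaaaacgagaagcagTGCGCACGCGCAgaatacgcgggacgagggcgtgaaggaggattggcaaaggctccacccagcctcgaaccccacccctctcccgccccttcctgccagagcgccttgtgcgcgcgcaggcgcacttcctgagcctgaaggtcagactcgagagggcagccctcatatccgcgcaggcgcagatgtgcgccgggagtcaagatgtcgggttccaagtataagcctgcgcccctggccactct
Ndufs6 (chr13:73328433-73328732, minus strand): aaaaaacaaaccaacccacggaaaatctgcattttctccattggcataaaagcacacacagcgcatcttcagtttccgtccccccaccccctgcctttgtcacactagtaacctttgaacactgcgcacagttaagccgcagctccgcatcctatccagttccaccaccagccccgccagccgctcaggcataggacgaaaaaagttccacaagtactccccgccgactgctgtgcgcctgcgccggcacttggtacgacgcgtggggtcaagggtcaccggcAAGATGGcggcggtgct
Ndufa3 (chr7:3617123-3617422, plus strand): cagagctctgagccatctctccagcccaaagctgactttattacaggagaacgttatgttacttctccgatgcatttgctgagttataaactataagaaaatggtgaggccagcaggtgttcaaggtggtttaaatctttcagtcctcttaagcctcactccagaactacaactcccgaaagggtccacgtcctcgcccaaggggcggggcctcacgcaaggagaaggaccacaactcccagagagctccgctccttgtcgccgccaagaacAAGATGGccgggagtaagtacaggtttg
Ndufb4 was above 0 in all 10 classes (0.16 to 0.66). Of the other members with an NRF1 match, Ndufa11 was also above 0 in all 10 (0.10 to 0.89), and Ndufa6 in 4 of 10 (-0.18 to 0.30). Ndufs6 was above 0 in 4 of 9 (-0.33 to 0.20), and Ndufa3 had ratios of 0.48 to 1.29. Both are only part of the 7 members with the YY1 letters, and a link of letters with diet ratios was not tested. A match is a description of the letters and shows no binding.

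The makeup of the nuclear set differed between classes. As a share of all nuclear subunit UMIs, several members differed at least 2-fold between the highest and lowest class in both libraries. Ndufa4 made up 6.43% and 7.09% in tumor or stromal cells and 2.97% and 2.66% in macrophages. Ndufa12 (3.59% and 2.99%), which sits beside the Q module, and Ndufa5 (2.15% and 2.16%) also had their highest shares in tumor or stromal cells. Their lowest shares were in monocytes (Ndufa12, 1.31% and 1.25%) and intermediates (Ndufa5, 0.989% and 0.878%). Ndufab1, the mitochondrial acyl carrier protein, was highest in cycling NK cells (2.94% and 2.70%) and lowest in monocytes (1.39% and 1.17%). Ndufa3 and Ndufb1-ps were highest in neutrophils (2.73% and 4.32%, and 8.82% and 10.3%) and lowest in tumor or stromal cells (0.759% and 1.35% for Ndufa3, and a 4.42-fold and 3.87-fold lower share for Ndufb1-ps). Other members passed 2-fold in 1 library only, and were named after their values were seen. Ndufv3 was 2.84-fold apart between other T cells and neutrophils in the normal library and 1.28-fold in the ketogenic library, Ndufa6 2.67-fold and 1.75-fold between neutrophils and tumor or stromal cells, and Ndufc2 1.88-fold and 2.01-fold between macrophages and tumor or stromal cells. Shares within a class and library do not depend on the total of the class.

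The diet ratio moved with transcript length among all genes, and most nuclear members are short. In macrophages the median log2 ratio of all genes was 0.02 in the shortest of 4 equal length bins and -0.25 in the longest, and 31 members in the shortest length bin had a median of 0.23. In NK cells that were not cycling these values were 0.02, -0.21 and 0.14 (32 members), and in neutrophils 0.25, -0.14 and 0.65 (16 members). In each of the 10 classes the members in the shortest length bin had a higher median than all genes of that bin. Length here is the median over the protein-coding transcripts annotated for a gene, so it need not be that of the RNA counted. It put Ndufs1, the largest core subunit, at 651 bases and Ndufb2 at 2413. Among 37 members, this length and the median log2 ratio had a Spearman's rho of -0.36. The part of length in the higher nuclear level beyond these values was not tested.

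Genes that build or maintain the complex had smaller summed diet ratios than the subunits. Of 79 pairs of assembly factors 5 (6.33%) were called higher and 2 (2.53%) lower, against 3.26% and 9.57% of all gene and class pairs, and the summed level had log2 ratios from -0.04 to 0.19. Ndufaf8 and Dmac1, the most counted of them, stood at 61.3 and 70.9 and at 60.4 and 61.6 CPM over all kept barcodes, and Ndufaf3 at 38.7 and 38.6. Genes for mitochondrial transcription, RNA upkeep and DNA replication gave 106 pairs, of which 5 (4.72%) were called higher and 13 (12.3%) lower, near the shares over all pairs, with summed ratios from -0.09 to 0.12. Their most counted members were Ssbp1, which binds single-stranded mitochondrial DNA (85.5 and 107), Slirp, which stabilises mitochondrial mRNA (81.0 and 92.2), and Tfam, the packaging and transcription factor of that DNA (32.5 and 34.3). Values over all kept barcodes also vary with the makeup of the library. Macrophages were 18.8% and 7.12% of kept barcodes, and NK cells that were not cycling 14.1% and 23.9%. The part of this makeup in such values was not tested. In macrophages 5 of 17 such genes measured were called lower (12.1% of all genes), Tfam among them at 27.3 and 15.1 (-0.85, interval -1.49 to -0.26). In monocytes 3 of 11 were called lower (10.4% of all genes), and in NK cells that were not cycling 1 of 20 (6.72%). In cycling NK cells 0 of 9 were called lower (7.53%), and in other T cells 0 of 4 (10.1%). The mt-Nd sum was lower in all of these classes. Tfam values in the other classes are not given, and its part in the mt-Nd level was not tested.

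The ratios of sums also appeared in the middle of the cells. The median macrophage had 1320 CPM of mt-Nd RNA with the normal and 748 CPM with the ketogenic diet, and 6185 and 7233 CPM of nuclear subunit RNA. The median NK cell that was not cycling had 3851 and 2417 (mt-Nd) and 6549 and 7578 (nuclear), and the median other T cell 4374 and 2609 (mt-Nd) and 6207 and 7655 (nuclear). The cells overlapped widely: in macrophages the middle quartiles of cells ran from 484 to 2626 CPM in the normal library and from 219 to 1576 in the ketogenic library. A median macrophage rested on 5 and 3 mt-Nd UMIs, so single values are coarse. Macrophages without any mt-Nd UMI were 10.7% and 22.9% of the class, at median depths of 4082 and 3997 UMIs. Neutrophils were the exception: 55.9% and 50.0% had no mt-Nd UMI, and their median was 0 with the normal and 83.0 CPM with the ketogenic diet, which is the opposite direction to the ratio of sums. Their nuclear median was 2323 and 4040, at 974 and 1264 UMIs per cell.

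**Figure D5:**
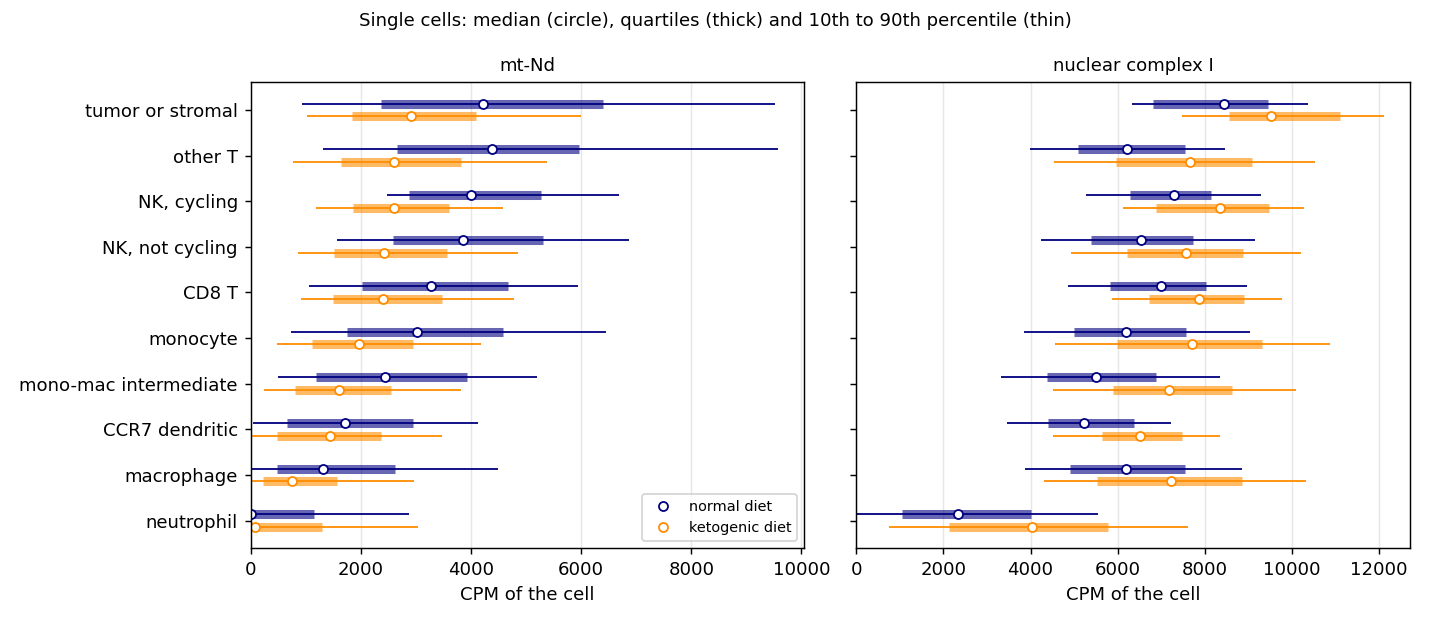
Distribution over single cells of mt-Nd (left) and nuclear subunit (right) CPM of the cell, by gated class and library; circles are medians, thick bars the quartiles and thin bars the 10th to 90th percentile of cells. The mt-Nd medians are lower in the ketogenic library (1320 and 748 in macrophages) except in neutrophils (0 and 83.0), and the nuclear medians are higher.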

How the data were processed

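The authors deposited unfiltered matrices of UMI counts per gene and barcode, 1 per library, with 37575996 and 42710007 counts. The reads came from Chromium 3′ v3.1 libraries sequenced on a HiSeq 2500, per the labels' protocols. The submitters' processing notes name Cell Ranger 6.0.0, Seurat 3.2.0 and GRCm38 (mm10), while Cell Ranger 4 is named per the file headers. Whether mice were told apart within a pool is not given in the sources used here.

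A barcode was used from 500 UMIs and 300 genes upward (35623303 and 39758619 UMIs in all) and gated by sums of marker genes, with no limit on the mitochondrial share, which is close to the quantity measured. Counts were summed per class and library and divided by the class total, as CPM. Intervals are exact Poisson (levels), exact conditional binomial (ratios) and log-odds (mt-Nd per nuclear UMI), at 95%, for counting error only. Calls needed 1.5-fold and 50 UMIs over both libraries; no p-value was computed. Members with too few counts are given as not measured. The calculation was tested on simulated counts. Transcript lengths are medians over the protein-coding transcripts of a gene in GENCODE M21 (97.4% of members with a length). Named genes are the mt-Nd genes, the nuclear core, the 5 most counted nuclear members, Ndufa4 and Ndufa4l2, members called with an interval that leaves out 1, and members whose share differs 2-fold between classes in both libraries; Ndufs6 and Ndufb4 were named after their values were seen. One member is in the sums and counts but is not reported here by itself. The members and gene lists were chosen with earlier results of these data known. Coa1 and Fastkd4 of the lists were not matched. Analyses used matplotlib 3.10.9, scipy 1.17.1, numpy 2.4.6 and pandas 2.3.3 under Python 3.11.15.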

Additional observations from a re-analysis of the deposited data

Results flagged for a closer look

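Ndufs6, a zinc-binding accessory subunit of the N module, had a log2 diet ratio 0.53 higher in tumor or stromal cells (184 and 212 CPM (counts per 1000000 UMIs)) than in cycling NK cells (185 and 148), with counting intervals on opposite sides of 0. Ndufs4 had a ratio 1.06 higher in neutrophils (65.9 and 119) than in monocytes (187 and 162), again with intervals on opposite sides of 0. The neutrophil interval only just left out 0 (0.03 to 1.73), and 1 cell held 15.8% of the normal-diet Ndufs4 UMIs of that class. Monocyte markers were also higher in ketogenic-diet neutrophils, and their part in the Ndufs4 value was not tested. With 1 library per diet, neither difference between classes was tested. Barcodes with at most 100 UMIs, which no class uses, held mt-Nd RNA at 7872 CPM in the normal library and 4820 in the ketogenic library.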

How the results depend on the processing

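No paired analysis was possible because each diet has 1 library. Across the other settings, class values that a setting could not move were counted too. Leaving out Ndufa4 and Ndufa4l2 does not touch the mt-Nd sum, and a rescaled class total cancels in mt-Nd per nuclear UMI. With these repeats included, the class ratios kept their sign in 109 of 110 values for mt-Nd. The same held for 110 of 110 values of the nuclear sum (0.16 to 0.80) and 110 of 110 of mt-Nd per nuclear UMI (-1.14 to -0.33). The exception for mt-Nd was neutrophils, whose log2 ratio was 0.090 with barcodes of at most 5% mitochondrial UMIs and -0.02 with at most 10%. At 5%, 18 in place of 28 mt-Nd pairs were at least 1.5-fold lower. With mixed barcodes kept, the median mt-Nd log2 ratio was -0.53 in place of -0.59 and 0 in place of 2 nuclear pairs were called lower. With the median of well-counted genes set to 0, the median nuclear ratio was 0.27 in place of 0.24. The count of nuclear pairs called lower was 1 at doubled gate thresholds, 1 with 10 CPM added and 0 at a minimum of 200 UMIs, where 21 in place of 34 were called higher. The cause was not tested, except that the higher minimum leaves fewer pairs. For none of these settings was the share called over all genes computed, so the counts of calls cannot be read against it. Leaving out the cell richest in mt-Nd UMIs was chosen after seeing the data. Depth limits mt-Nd6, Ndufa4l2 and neutrophils most.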
